A study of Rattus norvegicus with 15 samples.

Results

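Müller glia span the whole thickness of the retina, and 7 of the genes that serve their housekeeping work were followed through sodium iodate (NaIO3) injury and cell injection. The 7 genes were *Glul*, *Slc1a3*, *Aqp4*, *Kcnj10*, *Dkk3*, *Clu* and *Car14*. They were taken from the table by symbol, with earlier results of these data known, and *Car14* is listed under its other symbol, *Ca14*. All 7 were among the 20375 genes listed, and all 7 were among the 15429 tested. Whole retinas were sequenced from wild type Sprague-Dawley rats at postnatal week 12, on day 31 after transplantation, with 3 libraries in each of 5 groups. NT rats were healthy and received neither NaIO3 nor cells. Sham rats were given vehicle into the vitreous and then NaIO3 at 40 mg/kg. MSC rats received NaIO3 at 40 mg/kg after an injection of human mesenchymal stem cells from Wharton's jelly, and MSCEPO rats the same after cells transduced with a lentivirus that carries human erythropoietin and then sorted. DPSC rats received NaIO3 at 40 mg/kg after cells that the labels call DPSC, a group the study's methods do not describe. Per the labels, rats with xenografts also had dexamethasone at 2 mg/kg before surgery and cyclosporin at 10 mg/kg/day after it, so immunosuppression and the injected cells cannot be told apart. The labels and the methods give different cell densities, so no cell dose is given. Reads were assigned to the rat alone although the MSC and MSCEPO cells were human, and how many reads came from the graft is not known from the values. Over all genes, MSCEPO replicate 3, MSC replicate 1 and DPSC replicate 2 lay farthest from their group means, at distances of 59.4, 47.4 and 43.5 (square root of the summed squared rlog differences), against 16.2 to 21.0 in NT and Sham.

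Müller cells take up glutamate that neurons release, turn it into glutamine, carry potassium and water away from active neurons to the vitreous and the vessels, and buffer the pH of the outer retina. After injury they raise *Gfap* and other genes of reactive gliosis, and in many models of retinal damage the proteins of this homeostatic work are reduced or moved within the cell. NaIO3 is an oxidant that destroys the retinal pigment epithelium first, and photoreceptors are lost after it. All levels are given as regularized log (rlog) values made by the authors, on a log2 scale on which 1 unit is a doubling. They hold no gene length, so levels are compared only within a gene. Depth is unknown from these values, and the rlog shrinks differences. In a bulk sample, fewer cells of a type and less RNA per cell cannot be told apart.

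The Müller glia label was checked on 18 other identity genes, all of them measured, such as *Rlbp1* and *Sox9*. Their mean level, set to 0 in NT, lay between 0.13 and 0.36 in the Sham libraries, 0.13 and 0.34 in MSC, 0.28 and 0.30 in MSCEPO, and 0.23 and 0.32 in DPSC. *Rlbp1*, the retinaldehyde-binding protein of Müller cells and pigment epithelium, had rlog values of 13.13, 13.42 and 13.13 in NT and 13.05, 13.07 and 12.83 in Sham. It was 12.19, 12.72 and 12.70 in MSC, where it fell by 0.69 on the log2 scale (SE 0.20, adjusted p = 0.0415, limma). It was 12.66, 12.74 and 13.36 in MSCEPO and 12.80, 12.74 and 13.09 in DPSC, and those differences from NT, -0.30 (adjusted p = 0.372) and -0.35 (0.395), did not pass. *Gfap*, the intermediate filament raised in reactive glia, was 9.64, 10.08 and 9.43 in NT and 12.95, 13.53 and 12.80 in Sham, which is 3.38 higher on the log2 scale (SE 0.26, adjusted p = 0.00111, limma). Each of the 12 NaIO3 libraries lay above the highest NT library, 0.06, for the identity list, and *Gfap* was higher in every Sham library than in NT. The identity list also holds *Vim*, which is counted as a gliosis gene too. Its mean without *Vim* was not taken, so this check is not separate from gliosis. Cells other than Müller glia also express some of the 7 genes: retinal astrocytes hold *Aqp4*, *Slc1a3* and *Glul*, and pigment epithelium holds *Clu* and *Car14*.

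RefSeq promoter windows on the GRCr8 build, 250 bases before to 50 after a start site, were found for 5 of the 7 genes, but not for *Clu* or *Dkk3*. Those of *Car14*, which fell, *Slc1a3*, which rose, and *Kcnj10*, which as a single gene passed in no main comparison, are printed 5′ to 3′. Matches to the motifs searched are in capitals. The *Car14* window is chr2:186138115-186138414 on the minus strand, the first of 3 *Slc1a3* windows is chr2:59557759-59558058 on the minus strand, and the *Kcnj10* window is chr13:87334260-87334559 on the plus strand.
Car14: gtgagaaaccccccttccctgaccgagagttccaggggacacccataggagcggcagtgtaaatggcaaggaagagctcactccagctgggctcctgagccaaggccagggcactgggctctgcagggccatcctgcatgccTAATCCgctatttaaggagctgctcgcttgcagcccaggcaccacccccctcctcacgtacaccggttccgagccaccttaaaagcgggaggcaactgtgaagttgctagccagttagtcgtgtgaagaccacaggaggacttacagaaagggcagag
Slc1a3: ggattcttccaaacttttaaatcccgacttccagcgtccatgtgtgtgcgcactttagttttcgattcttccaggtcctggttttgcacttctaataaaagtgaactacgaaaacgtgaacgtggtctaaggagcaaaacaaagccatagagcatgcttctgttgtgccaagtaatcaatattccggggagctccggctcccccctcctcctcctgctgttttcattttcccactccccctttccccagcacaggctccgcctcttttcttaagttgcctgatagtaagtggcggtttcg
Kcnj10: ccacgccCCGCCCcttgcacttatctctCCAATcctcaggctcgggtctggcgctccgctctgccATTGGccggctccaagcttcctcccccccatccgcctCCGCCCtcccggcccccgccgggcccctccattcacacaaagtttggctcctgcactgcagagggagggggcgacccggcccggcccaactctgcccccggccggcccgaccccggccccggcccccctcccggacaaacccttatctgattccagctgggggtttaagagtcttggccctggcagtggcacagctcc
The motifs were searched on both strands. For factors of injury and inflammation the letters were TTCNNNGAA for STAT factors and TGANTCA for AP-1. Dexamethasone acts through the glucocorticoid receptor, for which ACANNNTGT was searched. For cell identity, ACAATG was used for SOX factors and TAATCC for the photoreceptor factor CRX. General promoter elements were the CCAAT box, written as CCAAT, the GC box, written as GGGCGG, and the TATA box, written as TATAAA. No motif contains another. The *Car14* window held a single match, TAATCC at -108 to -103, and 7.17% of 33469 rat promoter windows hold those letters. The *Slc1a3* window held no match. The *Kcnj10* window, with a GC content of 70.3%, held the CCAAT box at -222 to -218 and at -185 to -181 and the GC box at -243 to -238 and at -148 to -143. Of all windows, 37.5% hold the CCAAT box and 33.1% the GC box. Both boxes were also matched in both windows of *Glul* and in 1 of 2 windows of *Aqp4*. *Glul* alone among the 5 genes had a match to ACANNNTGT, at -63 to -55 of its first window, a motif in 6.86% of windows. TTCNNNGAA (8.87% of windows), TGANTCA (7.33%), ACAATG (13.2%) and TATAAA (14.2%) were in no window of the 5 genes. These matches describe letters and not bound sites.

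After NaIO3 the 7 genes did not move as a block. Between Sham and NT, *Clu* was higher and passed both thresholds, which are 0.05 for the adjusted p and 2 for the fold change. The others passed neither the joint call nor the adjusted p. So 1 of 7 genes was a differentially expressed gene (DEG), against 0.344% of all genes tested. By the adjusted p alone it was also 1, where 1.04% of all genes passed. Groups did not overlap for 3 of 7 genes (*Clu* and *Slc1a3* higher in Sham, *Car14* lower), beside 31.9% of all genes tested. The median log2 fold change of the 7 genes was -0.01, beside 0.00 over all genes tested.

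**Figure D1:**
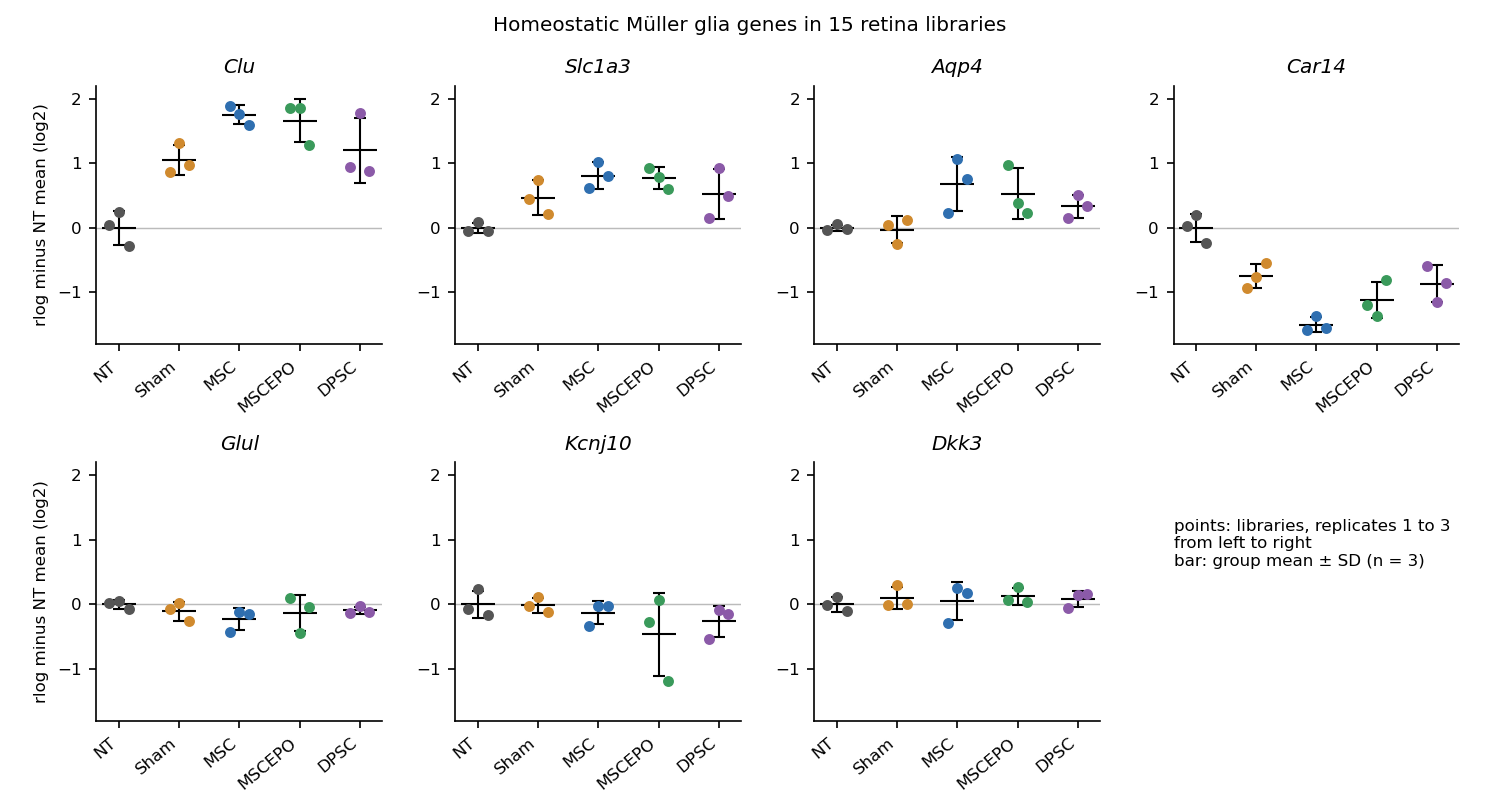
Level of each of the 7 genes in the 15 libraries, as rlog minus the NT mean (log2, vertical axis), by group. Points are libraries, and bars give the group mean and SD (n = 3). *Clu* lies above NT and *Car14* below it in each of the 12 NaIO3 libraries, while *Glul* and *Dkk3* stay within a span of group means of 0.23 and 0.12, and MSCEPO replicate 3 is the low point of *Kcnj10*.

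Clusterin, encoded by *Clu* (ENSRNOG00000016460), is a secreted chaperone that binds misfolded proteins and lipids, and it showed the widest range of the 7 genes. Its rlog values were 14.33, 14.53 and 14.00 in NT and 15.16, 15.61 and 15.26 in Sham. They were 16.18, 16.06 and 15.89 in MSC, 16.14, 16.15 and 15.57 in MSCEPO, and 15.24, 16.08 and 15.17 in DPSC. All 12 NaIO3 libraries lay above the highest NT library, and DPSC replicate 2 stood with the MSC libraries rather than with the other DPSC libraries. How many of all genes separate over all 12 was not counted, and in single groups against NT 31.4% to 44.1% did. The group means ran from 16.04 ± 0.15 (SD, n = 3) in MSC, through 15.95 ± 0.33 in MSCEPO, 15.49 ± 0.51 in DPSC and 15.34 ± 0.23 in Sham, to 14.29 ± 0.27 in NT. Neighbours in that order overlapped except Sham and NT.

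In limma, *Clu* was 2.08-fold higher in Sham than in NT (95% interval 1.51 to 2.86, adjusted p = 0.0412). That call was lost with any 1 NT or Sham library left out (adjusted p from 0.0913 to 0.231), with no filter (0.0568), with quantile normalization (0.0954) and with all 15 libraries in the fit (0.0788). The rise was 3.37-fold in MSC (adjusted p = 0.000749) and 3.17-fold in MSCEPO (adjusted p = 0.000894), and both passed under every alternative run. In DPSC it was 2.30-fold (adjusted p = 0.0256). That call was lost without any 1 NT library (0.0579 to 0.128) or without DPSC replicate 2 (log2 fold change 0.91, 0.0842). It was also lost with quantile normalization and with only the 2 groups in the fit. Against Sham, *Clu* differed by 0.70 in MSC (log2, SE 0.21, adjusted p = 0.166), 0.61 in MSCEPO (adjusted p = 0.538) and 0.15 in DPSC (SE 0.25, adjusted p = 1.00), so none passed. Without MSC replicate 1 and MSCEPO replicate 3, a choice made after seeing the data, the MSCEPO value was 0.80 (adjusted p = 0.0317). MSCEPO replicate 3 was the lowest *Clu* library of its group, at 15.57. The share of all genes passing without this pair was not counted.

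The glutamate pair divided. *Slc1a3* (ENSRNOG00000016163) encodes GLAST, the main glutamate transporter of Müller cells, and *Glul* (ENSRNOG00000049560) encodes glutamine synthetase, which turns the glutamate taken up into glutamine. *Slc1a3* was 12.86, 12.99 and 12.86 in NT and 13.35, 13.65 and 13.12 in Sham. It was 13.51, 13.92 and 13.70 in MSC, 13.83, 13.69 and 13.50 in MSCEPO, and 13.05, 13.84 and 13.39 in DPSC. Every NaIO3 library lay above every NT library, though DPSC replicate 1 did so narrowly, and the share of all genes that separate so was not counted. The group means were 13.71 ± 0.20 (SD, n = 3) in MSC, 13.68 ± 0.17 in MSCEPO, 13.43 ± 0.39 in DPSC, 13.37 ± 0.27 in Sham and 12.90 ± 0.08 in NT, and the 4 NaIO3 groups overlapped one another in that order.

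*Slc1a3* rose 1.76-fold in MSC against NT (log2 fold change 0.81, SE 0.15, adjusted p = 0.00653, limma) and 1.71-fold in MSCEPO (0.78, adjusted p = 0.0109). Both passed the adjusted p but not the fold threshold, and the MSCEPO call was lost without NT replicate 3 (adjusted p = 0.0515). The difference was 0.47 in Sham (SE 0.15, adjusted p = 0.227) and 0.53 in DPSC (SE 0.19, adjusted p = 0.172). *Glul* was 15.67, 15.70 and 15.57 in NT, 15.57, 15.67 and 15.38 in Sham, and 15.22, 15.54 and 15.49 in MSC. It was 15.74, 15.21 and 15.60 in MSCEPO and 15.52, 15.62 and 15.53 in DPSC. Its group means spanned 0.23 in all, and the log2 fold change from NT was -0.10 in Sham (95% interval -0.48 to 0.27), -0.23 in MSC (-0.60 to 0.14), -0.13 in MSCEPO (-0.50 to 0.24) and -0.09 in DPSC (-0.43 to 0.25). Those signs depended on scaling, as with quantile normalization *Glul* was 0.24 higher in Sham than in NT.

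Since both genes were read in the same library, their difference within a library tests whether they moved unequally, with no level compared between genes. *Glul* minus *Slc1a3* was 2.81, 2.71 and 2.71 in NT and 2.22, 2.02 and 2.26 in Sham. Over all 12 NaIO3 libraries it ran from 1.51 to 2.46, with no overlap with NT. The mean was lower by 0.78 on the log2 scale in these 12 than in NT (two-sided exact permutation test over 455 splits, 3 libraries against 12, p = 0.0044, the smallest possible, adjusted p = 0.0132 over 6 such tests). *Slc1a3* alone already lay above every NT library in these 12, and the group means of *Glul* spanned 0.23. The test therefore largely repeats the *Slc1a3* levels and is not separate evidence. Of the 12, 9 also had injected cells and, per the labels, immunosuppression, so the shift is not that of NaIO3 alone. Sham had a mean of 2.17 against 2.74 in NT, and an exact test of 3 against 3 libraries cannot go below 0.1. Between Sham and the 9 cell-injected libraries the difference was -0.28 (exact permutation p = 0.1545, adjusted p = 0.1545), and without DPSC replicate 1 it was -0.35 (exact permutation p = 0.0364, adjusted p = 0.0545).

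*Clu* and *Glul* parted in the same way. *Clu* minus *Glul* was -1.34, -1.17 and -1.57 in NT and between -0.41 and 0.96 in the 12 NaIO3 libraries. The shift was 1.56 (exact permutation p = 0.0044, the smallest possible, adjusted p = 0.0132). *Clu* alone already lay above every NT library in these 12, and the group means of *Glul* spanned 0.23. This test therefore largely repeats the *Clu* levels and is not separate evidence. Between Sham and the cell-injected libraries it was 0.53 (exact permutation p = 0.1, adjusted p = 0.12), which did not pass. All 3 pairs of genes are drawn in the plot of differences within a library.

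**Figure D2:**
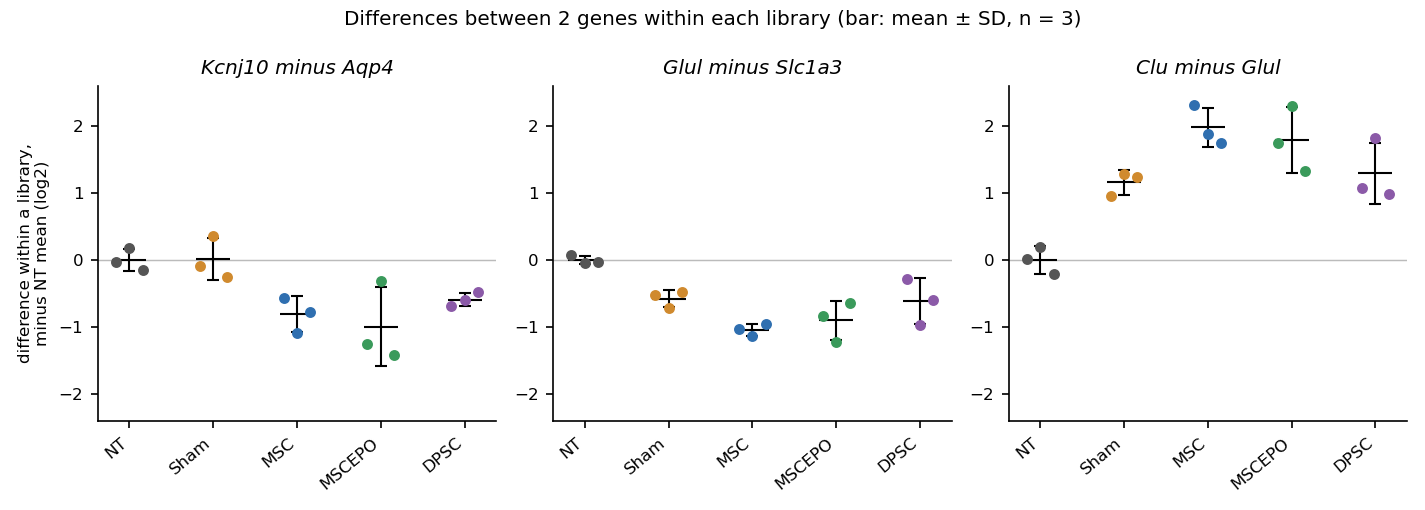
Differences between 2 genes within each library, minus the NT mean (log2, vertical axis), by group. Points are libraries, and bars give the mean and SD (n = 3). *Glul* minus *Slc1a3* is lower and *Clu* minus *Glul* higher in each NaIO3 library than in NT, whereas *Kcnj10* minus *Aqp4* is near NT in Sham and lower in the 9 cell-injected libraries.

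The water and potassium channels are partners in the Müller end-foot: *Aqp4* (ENSRNOG00000016043) encodes the water channel aquaporin-4 and *Kcnj10* (ENSRNOG00000007705) the potassium channel Kir4.1. *Aqp4* was 11.99, 12.08 and 12.00 in NT and 12.08, 11.77 and 12.15 in Sham. It was 12.25, 13.09 and 12.78 in MSC, 13.01, 12.41 and 12.26 in MSCEPO, and 12.18, 12.53 and 12.36 in DPSC. NT and Sham overlapped, and each of the 9 cell-injected libraries lay above all 6 of them. The gap was narrow, from 12.15 in Sham replicate 3 to 12.18 in DPSC replicate 1. The share of all genes that separate so was not counted. The means were 12.71 ± 0.42 (SD, n = 3) in MSC, 12.56 ± 0.40 in MSCEPO, 12.36 ± 0.17 in DPSC, 12.02 ± 0.05 in NT and 12.00 ± 0.20 in Sham.

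No *Aqp4* difference passed in limma over all genes. Against Sham it was 0.71 in MSC (log2, SE 0.23, adjusted p = 0.195), 0.56 in MSCEPO (adjusted p = 0.622) and 0.36 in DPSC (SE 0.22, adjusted p = 1.00). For the mean of the 3 cell groups minus Sham it was 0.54 (95% interval 0.16 to 0.92, unadjusted p = 0.00924, adjusted p = 0.415), and 2.77% of all genes had no overlap there. Against NT it was 0.68 in MSC (adjusted p = 0.067) and 0.53 in MSCEPO (adjusted p = 0.169). MSC replicate 1 and MSCEPO replicate 3, which lay farthest from their groups over all genes, were the lowest *Aqp4* libraries of both groups. Without this pair of libraries, a choice made after seeing the data, the adjusted p was 0.00488 and 0.0155 against NT and 0.0226 and 0.0412 against Sham, for MSC and MSCEPO in that order. The share of all genes passing without the pair was not counted.

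*Kcnj10* was 8.60, 8.92 and 8.51 in NT, 8.64, 8.78 and 8.55 in Sham, and 8.34, 8.65 and 8.66 in MSC. It was 8.40, 8.74 and 7.49 in MSCEPO and 8.14, 8.58 and 8.53 in DPSC. The groups overlapped throughout, with a single low value in MSCEPO replicate 3, and the means went from 8.67 ± 0.21 (SD, n = 3) in NT and 8.66 ± 0.12 in Sham to 8.21 ± 0.65 in MSCEPO. The difference from NT was -0.01 in Sham (95% interval -0.60 to 0.57), -0.13 in MSC (-0.71 to 0.46), -0.46 in MSCEPO (-1.04 to 0.12) and -0.26 in DPSC (-0.81 to 0.29). Without MSCEPO replicate 3 the MSCEPO difference was -0.10.

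The same difference within a library was taken for this pair. *Kcnj10* minus *Aqp4* was -3.39, -3.17 and -3.50 in NT and -3.43, -2.99 and -3.60 in Sham. It ran from -4.76 to -3.67 in the 9 cell-injected libraries, with no overlap with Sham. The difference was -0.81 (two-sided exact permutation test over 220 splits, 3 libraries against 9, p = 0.0091, the smallest possible, adjusted p = 0.0182). *Aqp4* alone already separated these 9 libraries from Sham, so the test is not independent of the *Aqp4* levels. The 9 libraries also pool 3 cell groups. The difference was -0.73 without MSCEPO replicate 3 (adjusted p = 0.0242). Without any 1 Sham library it was -0.94 to -0.63, and the adjusted p was 0.0545 to 0.0727 with the exact permutation p at its smallest possible value, 0.0364. Between NT and all NaIO3 libraries it was -0.60 (exact permutation p = 0.0615, adjusted p = 0.0923).

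*Car14* (ENSRNOG00000023162), the membrane-bound carbonic anhydrase of Müller cells and pigment epithelium that speeds the exchange between carbon dioxide and bicarbonate, was the gene that fell. Its rlog values were 11.94, 12.12 and 11.69 in NT and 10.99, 11.16 and 11.37 in Sham. They were 10.34, 10.56 and 10.37 in MSC, 10.73, 10.56 and 11.10 in MSCEPO, and 11.33, 10.76 and 11.06 in DPSC. All 12 NaIO3 libraries were below all NT libraries, and the 3 MSC libraries were the lowest of the 15. The share of all genes that separate over all 12 was not counted. The means were 11.92 ± 0.22 (SD, n = 3) in NT, 11.17 ± 0.19 in Sham, 11.05 ± 0.29 in DPSC, 10.80 ± 0.28 in MSCEPO and 10.42 ± 0.12 in MSC. Sham, DPSC and MSCEPO overlapped one another in that order.

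In limma the level of *Car14* in MSC was 0.354 of that in NT (log2 fold change -1.50, SE 0.16, adjusted p = 0.00043) and in MSCEPO 0.46 (-1.12, adjusted p = 0.00177). Both were DEGs under every alternative run. In DPSC it was 0.55 of NT (-0.86, SE 0.17, adjusted p = 0.021), under the fold threshold, and in Sham 0.597 (-0.74, SE 0.16, adjusted p = 0.0633). The DPSC call by adjusted p was lost without NT replicate 1 or 2 or DPSC replicate 2 (0.0823 to 0.0951), and with only the 2 groups in the fit (0.0537). The Sham difference passed when the fit held only the 2 groups (adjusted p = 0.0188) and with array weights (0.000273). Against Sham, *Car14* differed by -0.75 in MSC (SE 0.16, adjusted p = 0.106), -0.38 in MSCEPO (adjusted p = 0.622) and -0.12 in DPSC (adjusted p = 1.00). Without MSC replicate 1 and MSCEPO replicate 3, a choice made after seeing the data, the MSC value was -0.71 (adjusted p = 0.0281). The share of all genes passing without this pair was not counted.

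*Dkk3* (ENSRNOG00000016343), a secreted member of the Dickkopf family of Wnt regulators, was the steadiest of the 7. It was 15.04, 15.18 and 14.95 in NT, 15.05, 15.36 and 15.06 in Sham, and 14.78, 15.31 and 15.24 in MSC. It was 15.12, 15.33 and 15.09 in MSCEPO and 15.01, 15.21 and 15.22 in DPSC. All groups overlapped, and the group means spanned 0.12. The difference from NT was 0.10 in Sham (95% interval -0.27 to 0.47), 0.05 in MSC (-0.32 to 0.42), 0.12 in MSCEPO (-0.25 to 0.495) and 0.09 in DPSC (-0.26 to 0.43), so no interval reached a 2-fold change.

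Counted over the genes, 2 of 7 were DEGs in MSC against NT (*Clu* higher, *Car14* lower), where 6.5% of all genes were, and 2 of 7 in MSCEPO (again *Clu* and *Car14*), where 3.56% were. By the adjusted p alone *Slc1a3* joined them in both, giving 3 of 7 beside 15.5% and 10.2% of all genes. In DPSC against NT 1 of 7 was a DEG (*Clu*), beside 0.784%, and 2 of 7 passed the adjusted p alone, beside 2.85%. Groups did not overlap for 5 genes in MSC, 4 in MSCEPO and 4 in DPSC, beside 44.1%, 31.4% and 31.7% of all genes. These comparisons share the NT libraries.

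Between cell groups and Sham, 0 of 7 genes passed in limma, with the adjusted p alone or with the fold threshold, where 0.0972% of all genes passed the adjusted p in MSC, 0.0843% in MSCEPO and 0.0195% in DPSC. At an unadjusted p under 0.05 there were 3 in MSC (*Aqp4*, *Clu* and *Car14*), 3 in MSCEPO (the same genes) and 0 in DPSC, beside 12.9%, 7.85% and 2.37% of all genes. Groups did not overlap for 3, 1 and 1 of the 7 (*Aqp4* in all, *Clu* and *Car14* in MSC), beside 24.5%, 14.2% and 9.82%. Among the cell groups 0 of 7 passed either. The difference of MSCEPO from MSC was 0.38 for *Car14* (95% interval 0.02 to 0.73, adjusted p = 0.793) and between -0.34 and 0.10 for the other genes. The gap between DPSC and MSC was 0.63 for *Car14* (95% interval 0.26 to 1.01, adjusted p = 0.587) and -0.55 for *Clu* (adjusted p = 0.71). None of the 7 passed between DPSC and MSCEPO, where *Clu* differed by -0.46 (95% interval -1.01 to 0.09) and *Car14* by 0.26 (-0.12 to 0.63). With array weights, which give less weight to more variable libraries, 6 of the 7 passed the adjusted p there, with -0.85 for *Clu* (0.000579) and 0.69 for *Car14* (0.00053). The share of all genes passing with array weights was not counted, so these 6 cannot be set against it. Without array weights, 0.00648%, 0% and 0% of all genes passed the adjusted p in these 3 comparisons. An unadjusted p under 0.05 was reached by 3.14%, 7.02% and 2.48% of all genes, and by 1 (*Car14*), 2 (*Clu* and *Car14*) and 0 of the 7.

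**Figure D3:**
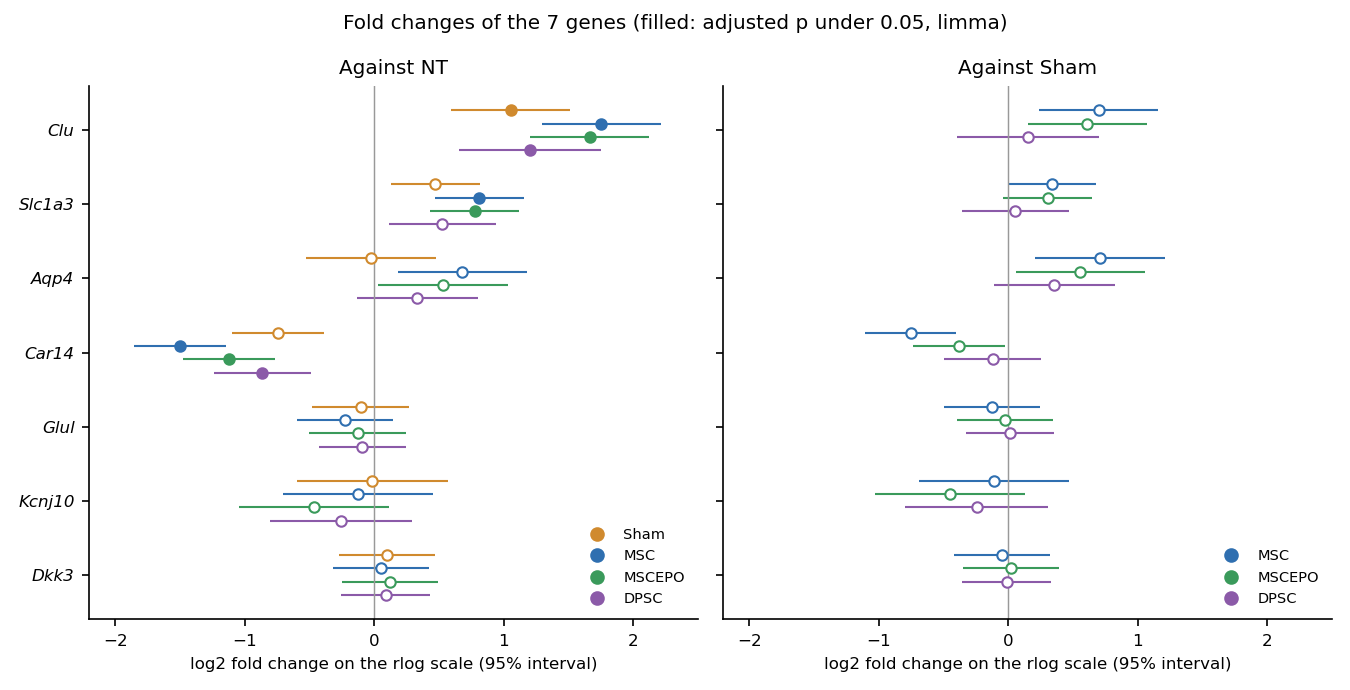
Log2 fold changes on the rlog scale (horizontal axis) of the 7 genes with 95% intervals, against NT (left) and against Sham (right). Filled points have an adjusted p under 0.05 in limma: *Clu* in the 4 NaIO3 groups, *Car14* in the 3 cell groups and *Slc1a3* in MSC and MSCEPO, all against NT, and 0 against Sham.

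The profiles themselves were compared over the 15 libraries, each centred on its own mean, by the root mean square difference. *Glul* and *Dkk3* were the closest pair of the 7, at 0.192, and *Clu* and *Car14* the farthest, at 1.18. Among 14483 genes outside the 7, the profiles nearest to *Slc1a3* were those of *Sox9*, a transcription factor of Müller glia, and *Tshr*, the thyrotropin receptor, both at 0.117. For *Aqp4* they were *Casc4* at 0.179 and *Sycp2* at 0.19. *Rab31*, a small GTPase of vesicle transport, at 0.167 and *Prelp*, a matrix proteoglycan, at 0.169 lay nearest to *Clu*. The nearest to *Car14* were *Sema3f*, a secreted semaphorin, at 0.176 and *Lpcat1*, an enzyme of phospholipid remodelling, at 0.178.

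Other genes of the same tasks also moved in part. Their counts stand beside those of all genes tested, of which 0.596% rose and 0.441% fell in Sham against NT by the adjusted p, 9.85% and 5.65% in MSC, 5.34% and 4.9% in MSCEPO, and 1.43% and 1.41% in DPSC, with a median log2 fold change of 0.00 in each. Of 15 genes of glutamate, glutamine and GABA handling, 0 passed the adjusted p in Sham against NT, 2 rose and 4 fell in MSC, and 2 rose and 5 fell in MSCEPO. In DPSC 0 rose and 2 fell. The median log2 fold change was -0.05, -0.35, -0.36 and -0.21 in Sham, MSC, MSCEPO and DPSC. *Slc38a3*, a glutamine carrier of Müller cells, fell by 0.93 in MSC (adjusted p = 0.00141), by 0.85 in MSCEPO (0.00233) and by 0.74 in DPSC (0.0344), and its value in Sham was -0.52 (0.0997). *Slc38a5*, another glutamine carrier, rose by 0.31 in MSC (0.0494) and 0.36 in MSCEPO (0.0368). *Slc1a2*, which encodes the glutamate transporter GLT-1, fell by 1.00 in MSCEPO (0.035), and *Got2*, the mitochondrial aspartate aminotransferase, fell by 0.54 in MSC (0.0125) and by 0.59 in MSCEPO (0.0115). In MSC and in MSCEPO 1 gene of the list was a higher DEG and 1 a lower DEG. The largest rises, 1.01 in MSC and 1.015 in MSCEPO, were not in the genes named here.

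In the list of potassium, water and end-foot anchoring genes, 17 were tested. In Sham against NT 0 passed, in MSC 3 rose and 4 fell, in MSCEPO 0 rose and 2 fell, and in DPSC 0 rose and 1 fell, with medians of 0.05, -0.05, 0.04 and -0.07. *Dtnb*, a dystrobrevin of the dystrophin complex, fell by 0.41 in MSC (adjusted p = 0.0139), 0.50 in MSCEPO (0.0072) and 0.42 in DPSC (0.0285). *Sntb2*, a syntrophin of the same complex, fell by 1.06 in MSC (0.0406) and by 1.49 in MSCEPO (0.0132). *Dag1*, which encodes dystroglycan, rose by 0.60 in MSC (0.0421), and *Slc12a2*, a sodium, potassium and chloride cotransporter, by 0.59 (0.0277). In MSC 1 gene of the list, not named here, was a higher DEG, with a rise of 1.0016, and 1 was a lower DEG. *Aqp9*, an aquaporin that also carries glycerol, passed in no comparison with NT (0.19 to 0.25).

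Of 12 genes of acid-base and lactate transport tested, 1 passed in Sham (lower), 1 rose and 3 fell in MSC, 1 rose and 2 fell in MSCEPO, and 0 rose and 2 fell in DPSC, with medians of -0.01, -0.30, -0.21 and -0.15. *Slc16a1*, the lactate transporter MCT1, fell by 0.68 in Sham (adjusted p = 0.0176), 1.09 in MSC (0.000333), 1.23 in MSCEPO (0.000176) and 0.84 in DPSC (0.00467). *Slc4a7*, a sodium bicarbonate cotransporter, fell by 1.60 in MSC (0.013), 2.26 in MSCEPO (0.00302) and 1.41 in DPSC (0.0429), and its value in Sham was -1.45 (0.0986). *Slc16a3*, the lactate transporter MCT4, fell by 0.69 in MSC (0.00494). The genes named here fell, but in MSC and in MSCEPO 1 gene of the list was a higher DEG, beside 2 lower DEGs. The largest rises in the list were 1.64 in MSC and 1.68 in MSCEPO.

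Of 13 genes of the Dickkopf and Wnt antagonist list tested, 1 passed in Sham, 2 in MSC, 1 in MSCEPO and 1 in DPSC, all of them higher than in NT, with medians of 0.04, 0.04, 0.20 and 0.14. *Sfrp4*, *Wif1*, *Sfrp1* and *Dkk2*, secreted Wnt regulators, passed in no comparison, with -0.22, -0.25, -0.04 and 0.05 in Sham. *Kremen1*, a receptor for Dickkopf proteins, rose by 1.24 in Sham (adjusted p = 0.00335), 1.33 in MSC (0.000342), 1.32 in MSCEPO (0.000317) and 1.30 in DPSC (0.000785). Of 12 genes of extracellular chaperones and lipoprotein handling tested, 0 passed in Sham, 3 rose in MSC, 2 in MSCEPO and 1 in DPSC, and none fell (medians -0.04, 0.13, 0.11 and 0.11). *Apoe*, the main lipid carrier of glia, rose by 1.50 in MSC (0.00866) and 1.13 in MSCEPO (0.0391), with 1.06 in Sham (0.154). *Lcat*, which esterifies cholesterol, rose by 0.34, 0.44 and 0.44 in MSC (0.0288), MSCEPO (0.0132) and DPSC (0.0373), and *Abca1*, a cholesterol exporter, by 1.42 in MSC (0.0142).

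Among the 18 identity genes, 1 rose in Sham, 4 rose and 3 fell in MSC, 6 rose and 2 fell in MSCEPO, and 2 rose in DPSC, with medians between 0.25 and 0.34. *Crym*, a thyroid hormone-binding protein, rose by 1.25 in Sham (adjusted p = 0.00584), 1.63 in MSC (0.000312), 1.72 in MSCEPO (0.000205) and 1.24 in DPSC (0.0107). *Mlc1*, a membrane protein of glial end-feet, rose by 0.71 in MSC (0.0139) and 0.96 in MSCEPO (0.0044), and *Vim*, an intermediate filament also counted as a gliosis gene, by 1.31 (0.00426), 1.34 (0.00467) and 1.44 (0.00906) in MSC, MSCEPO and DPSC. Of the 18 reactive gliosis genes, 8 rose in Sham, 15 in MSC, 15 in MSCEPO and 11 in DPSC, and none fell. Their medians were 1.30, 2.15, 1.96 and 1.65. Between Sham and NT, *Cebpd*, a transcription factor of the acute phase, rose by 1.43 (0.00335) and *Edn2*, the endothelin made by injured photoreceptors, by 1.22 (0.00335). *Glul*, *Kcnj10* and *Dkk3* passed the adjusted p in no comparison with NT. With array weights each passed in 1, *Glul* in MSCEPO at -0.39 (adjusted p = 0.0076), *Dkk3* in MSCEPO at 0.24 (0.0359) and *Kcnj10* in DPSC at -0.45 (0.0089).

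Between the mean of the 3 cell groups and Sham, 0 genes of any list passed the adjusted p in limma, as did 0 of the 7, beside 0.0195% of all genes. With array weights *Aqp4*, *Clu* and *Car14* passed, at 0.39 (adjusted p = 0.0368), 0.54 (0.0282) and -0.39 (0.0412). The 0.0195% is without array weights, and the share of all genes passing with them was not counted. Without array weights, an unadjusted p under 0.05 was reached by 3 of the 7 (*Aqp4*, *Clu* and *Car14*) beside 9.82% of all genes. The medians were 0.00 for the identity list, -0.17 for glutamate handling, -0.03 for potassium and water, -0.15 for acid-base and lactate transport, 0.09 for Wnt antagonists, 0.12 for chaperones and lipoproteins and 0.47 for gliosis, beside 0.00 over all genes. The values were 0.75 for *Cebpd* (adjusted p = 0.138), 0.76 for *Lcn2*, an iron-trapping lipocalin of reactive glia (0.172), and 1.05 for *S100a6*, a calcium-binding protein (0.423). They were -0.39 for *Slc6a11*, a GABA transporter (0.437), 0.22 for *Prdx6*, a peroxiredoxin (0.538), -0.29 for *Car8*, a carbonic anhydrase homologue without that activity (0.442), -0.19 for *Bsg*, the chaperone of lactate transporters (0.499), and 0.29 for *Pltp*, a phospholipid transfer protein (0.762).

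**Figure D4:**
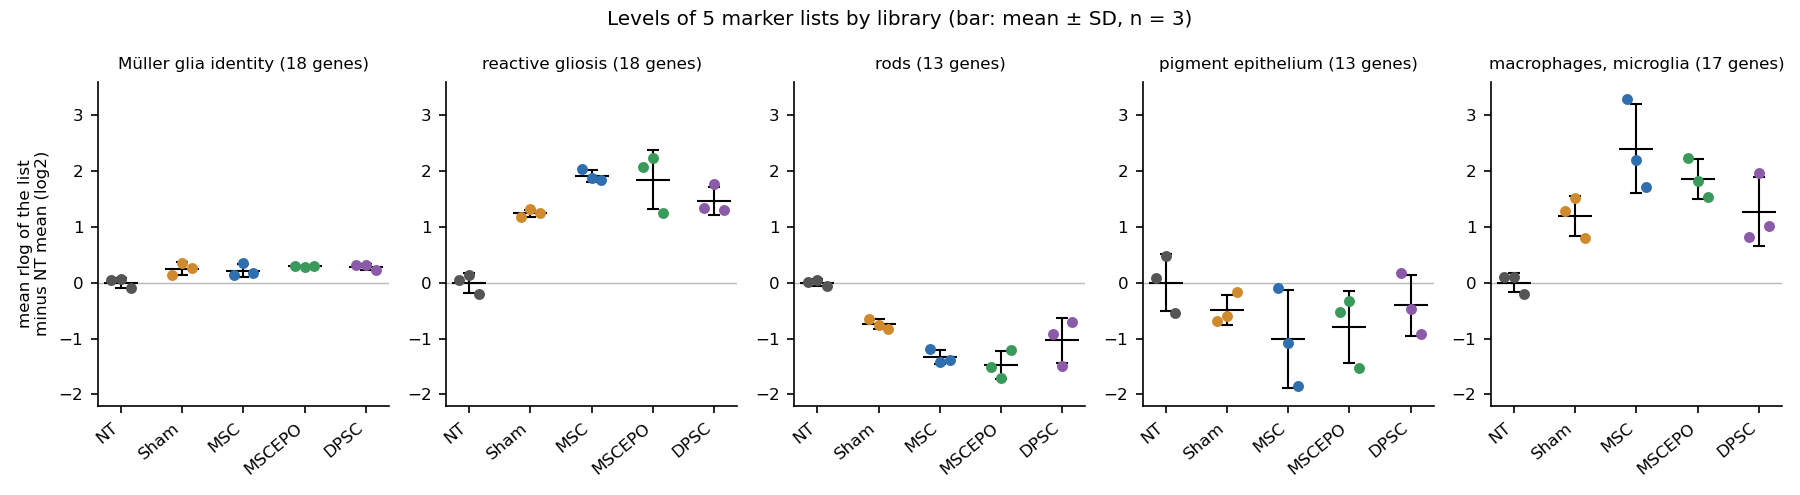
Mean rlog of 5 marker lists in the 15 libraries, minus the NT mean (log2, vertical axis), by group. Points are libraries, and bars give the mean and SD (n = 3). The Müller identity list stays between -0.10 and 0.36, the gliosis and macrophage lists are higher and the rod list lower in every NaIO3 library, and the pigment epithelium list varies widely within groups.

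Markers of other cells moved beside these results. The rod list, 13 genes, lay between -0.83 and -0.65 in Sham, -1.43 and -1.19 in MSC, -1.70 and -1.20 in MSCEPO, and -1.48 and -0.70 in DPSC, with 4, 12, 12 and 10 genes lower than in NT by the adjusted p. The macrophage and microglia list, 17 genes, lay between 0.80 and 1.51 in Sham, 1.72 and 3.28 in MSC, 1.53 and 2.23 in MSCEPO, and 0.82 and 1.97 in DPSC, with 1, 16, 15 and 2 genes higher. *Cd68*, a lysosomal marker of macrophages, was between 5.63 and 6.06 in NT and between 8.05 and 9.95 in MSC. The part of rod loss and of infiltrating cells in the levels of *Clu*, *Slc1a3*, *Aqp4* and *Car14* was not tested.

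For the other cells that share these genes the levels were as follows. The astrocyte list, 6 genes, lay between 0.14 and 0.27 in Sham, -0.03 and 0.12 in MSC, -0.23 and 0.10 in MSCEPO, and -0.03 and 0.28 in DPSC (its part in the *Aqp4* levels was not tested). The pigment epithelium list, 13 genes, lay between -0.55 and 0.47 in NT, -0.68 and -0.18 in Sham, -1.85 and -0.09 in MSC, -1.53 and -0.33 in MSCEPO, and -0.92 and 0.18 in DPSC. Its part in the levels of *Car14* and *Clu* was not tested. T and NK cell genes, 12 tested, reached 3.14 in MSC replicate 1, and the lens, ciliary body and cornea list, 12 tested, ran from -1.21 to 4.05 over the libraries. In the remaining lists, stromal genes (12) lay between -0.76 and 1.25, endothelial and pericyte genes (9) between -0.22 and 0.58, cone genes (8) between -0.99 and 0.11, bipolar genes (12) between -0.43 and 0.06, and genes of amacrine, horizontal and ganglion cells (16) between -0.72 and 0.04.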

How the data were processed

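The authors assigned the reads to the rat Rnor_6.0 transcriptome with Salmon 1.1.0, summed them to genes with tximport, and deposited log2 values from the rlog function of DESeq2, scaled by library size. The genes and gene lists were chosen with earlier results of these data known. The 15 columns of a second table were not used, and 0 values differed from those used. Counts were not used here, and limma was run on the rlog values as they are.

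Groups were taken from the labels, with 3 libraries each. Whether the replicates were separate animals is not stated in the labels, so p-values measure the spread between these libraries. Depth is unknown without counts, and tested genes had medians of 8.63 to 8.82 in the libraries. Genes averaging log2 of 10 or more entered limma 3.58.1 in R 4.3.3, with a trend on the mean. One fit held 12 libraries (NT, Sham, MSC and MSCEPO, 15429 genes, 6 comparisons) and a second all 15 (15424 genes, 5 comparisons with DPSC or the mean of the cell groups). P-values were adjusted by Benjamini-Hochberg, and DEGs also had to change more than 2-fold. For 6 differences within libraries, exact permutation tests (two-sided) were run in scipy 1.17.1. The steps were tested on simulated data.

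All 7 genes are named, with up to 3 genes of each list by adjusted p in Sham against NT and up to 3 in the cell groups against Sham, *Gfap* and *Cd68*, and 2 genes with the nearest profile where group means spanned at least 0.5. *Rlbp1* and *Sox9* were named as examples after their values were seen, and values of list genes are given only where they add to the account. Some genes that the rule names are not reported here. Genes with more than 1 identifier or no match were left out of the lists. The alternatives were the adjusted p alone, 2 other filters, median centring, quantile normalization, array weights, a block for the replicate number, other sets of libraries in the fit, each library left out and, chosen after seeing the data, MSC replicate 1 and MSCEPO replicate 3 left out together. Same-numbered libraries deviated together (every correlation over 0.1) in 1 of 10 pairs of groups, MSC with MSCEPO, at 0.26, 0.16 and 0.28. The pairing there comes from the data and the numbers in the titles, and the block changed no call.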

Additional observations from a re-analysis of the deposited data

Results flagged for a closer look

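Among the 9 cell-injected libraries, *Kcnj10* had 1 value far from the others. MSCEPO replicate 3 was at 7.49 on the rlog scale, and the next lowest library, DPSC replicate 1, was at 8.14. The gap was 0.52 of the whole range, above Dixon's 95% critical value for 9 values. The 9 libraries come from 3 groups, and 10 measures were examined in this way, and chance alone marks about 1 in 20 groups. MSCEPO replicate 3 was also the library farthest from its group over all genes, at a distance of 59.4. The part of that in the *Kcnj10* value was not tested. Groups of 3 were not examined alone.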

How the results depend on the processing

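Over 15 libraries of unknown depth, with 3 in a group and values that the rlog had shrunk, small differences could be missed. Of the 7 genes, 2 were called in MSC and in MSCEPO against NT under every alternative run but the adjusted p alone, where it was 3, and 0 in every comparison with Sham or among cell groups under every alternative run. By the adjusted p alone, leaving out MSC replicate 1 and MSCEPO replicate 3 brought *Aqp4* and *Car14* below 0.05 in MSC against Sham, and *Aqp4* and *Clu* in MSCEPO against Sham. That pair was chosen after seeing the data, and how many of all genes passed without it was not counted. In limma with array weights, *Slc1a3*, *Aqp4*, *Clu* and *Car14* in MSCEPO against Sham had an adjusted p of 0.0116, 0.0215, 0.000734 and 0.00424. How many of all genes passed with array weights was not counted, here or in any other comparison. In Sham against NT the count went from 1 to 0 with no filter, quantile normalization or all 15 libraries in the fit, and was 0 with each library left out in turn. In DPSC against NT it was 2 by the adjusted p alone, 0 with quantile normalization or only the 2 groups compared, and from 0 to 2 with 1 library left out (0 without any NT library or DPSC replicate 2, 2 without DPSC replicate 1). With array weights both counts were 0 because *Clu* changed less than 2-fold, at 0.92 in Sham and 0.96 in DPSC, while its adjusted p fell to 0.000421 and 0.000183, and *Slc1a3* and *Car14* also passed the adjusted p in Sham against NT (0.00479 and 0.000273). In DPSC minus MSCEPO array weights brought *Glul* (0.0366), *Slc1a3* (0.00222), *Dkk3* (0.0227), *Clu* (0.000579) and *Car14* (0.00053) below 0.05 by the adjusted p alone. *Kcnj10* there was 0.21 and turned to -0.49 with array weights (adjusted p = 0.00574, limma). The cause of the other changes was not tested.

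With 1 library left out, *Kcnj10* minus *Aqp4* differed between Sham and the cell-injected libraries by -0.94 to -0.63, with an adjusted p of 0.0545 to 0.0727 without a Sham library, where the exact permutation p was 0.0364, the smallest that 2 Sham libraries allow. Between NT and the NaIO3 libraries it differed by -0.68 to -0.50, with an adjusted p of 0.022 without Sham replicate 2. The other 4 such tests stayed on their side of 0.05. For the single genes, 1004 alternative values kept their direction and side of the threshold, 20 lost it, 28 passed it, 81 changed sign without a call and 1 reversed. The sign of *Glul* against NT turned with quantile normalization, to 0.24 in Sham, 0.00 in MSC, 0.37 in MSCEPO and 0.24 in DPSC.

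With the replicate block the counts were 1, 2, 2 and 1 for Sham, MSC, MSCEPO and DPSC against NT, so the block changed no count. Of 30 pairs of libraries with the same number, 12 had a correlation of deviations over 0.1 (-0.44 to 0.65). MSCEPO and DPSC, for example, had 0.40 and 0.65 for replicates 2 and 3, but -0.33 for replicate 1. Only MSC and MSCEPO passed 0.1 for every replicate. Whether libraries with the same number share more than the number is not known from the labels.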
